A study of Mus musculus with 12 samples.

Results

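Levels of 10 genes of the G1/S transition were read from RNASeq of splenic T cells: the E-type cyclins Ccne1 and Ccne2, the D-type cyclins Ccnd2 and Ccnd3, the transcription factors E2f1, E2f2 and E2f8, and the Cdk inhibitors Cdkn1a, Cdkn1b and Cdkn2d. They are 10 of the 49315 genes counted, chosen with earlier results of these data known. The list of symbols was matched by Ensembl identifier to the GRCm38 annotation. All 10 genes passed the filter on low counts in every comparison. The mice were 12-week-old males in 4 groups of 3, with 1 library per mouse. Wild-type (WT) mice and mice lacking the microRNA miR-214 in all cells (miR-214-/-) carried osmotic minipumps for 14 days, filled either with angiotensin II (Ang II, 490 ng/kg per day), a peptide that raises blood pressure, or with vehicle (sham). T cells were isolated from the spleen, and the paper gives negative selection (removal of other cells) for its transfer and culture experiments. The libraries could hold other cells of the spleen. The deletion was not limited to T cells.

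D-type cyclins with Cdk4 or Cdk6, and then E-type cyclins with Cdk2, phosphorylate the retinoblastoma protein and its relatives and so release E2F factors, which switch on the genes of DNA synthesis. E2f1 and E2f2 are activators, whereas E2f8 is a late repressor that limits E2F transcription. Cdkn1a (p21) and Cdkn1b (p27) bind cyclin-Cdk complexes and Cdkn2d (p19-Ink4d) binds Cdk4 and Cdk6, and resting T cells are known for high p27, which is removed as they enter the cycle.

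On GRCm38, Ccne1 lies at chr7:38097984-38107534, Ccne2 at chr4:11191351-11204779, Ccnd2 at chr6:127125162-127152193 and Ccnd3 at chr17:47505051-47599691. E2f1 lies at chr2:154559407-154569892, E2f2 at chr4:136172394-136196057 and E2f8 at chr7:48866429-48881596. Cdkn1a lies at chr17:29090976-29100727, Cdkn1b at chr6:134920401-134925513 and Cdkn2d at chr9:21288410-21291407. All 10 are protein-coding, and counts cover the exons of each.

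Sequences were examined for 2 features that bear on these genes, the E2F motif of their promoters and the site read by the deleted microRNA. In the stretches searched, E2f2 was the member that held both. The promoter table of RefSeq (GRCm38.p6), 250 bases before to 50 after each start, had entries for 8 of the 10 genes and none for Ccne2 and Ccnd2. The motif was searched on both strands as TTTCCCGC, TTTGGCGC, TTTCGCGC or TTTGCCGC, of which none is its own reverse complement. It was present for 1 of the 8 genes, compared with 2.6% of the 27025 genes in the table. Among genes with a promoter entry, it was present for 3 of 5 other E2F and DP genes and for 8 of 17 E2F target genes of S phase. The match is shown in capitals within the last 30 bases of an E2f2 window, chr4:136172294-136172323 on the plus strand. Its first base is number 40 counted from the RefSeq start as 1. The other E2f2 window, chr4:136180532-136180831, had 0 matches. RefSeq starts differ from some gene bounds given above, and the E2f1 window, chr2:154569377-154569676, lies inside the gene. A gene with 0 matches may therefore hold the motif outside the window searched.

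E2f2 promoter: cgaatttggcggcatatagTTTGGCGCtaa

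Mature miR-214-3p (RefSeq, chr1:162223438-162223459, plus strand) is shown with its seed, bases 2 to 8, in capitals. The complement of that seed was searched as CCTGCTG in the annotated 3′ UTRs of GENCODE M21 (GRCm38) and occurred in 1 of the 10 genes, E2f2, compared with 26.3% of 13150 tested genes with an annotated 3′ UTR. E2f2 had 2 such sites, which begin at bases 1776 and 2427 of its 3′ UTR. They lie on the plus strand within chr4:136194801-136194830 and chr4:136195452-136195481, and the site is in capitals. A match of letters is a description and shows neither binding nor regulation.

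miR-214-3p: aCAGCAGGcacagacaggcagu
E2f2 site at base 1776: aggttagatacaCCTGCTGcagagatgtcc
E2f2 site at base 2427: ctaccagtgtccCCTGCTGatatccctggg

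Libraries held 21126874 to 29605988 counts in all, and the lowest member, Cdkn1a, had between 49 and 237 counts. T cell markers (14 genes) summed to between 3962 and 6701 CPM (counts scaled to the adjusted library total) in every library. Markers of other spleen cells were also present, as the plot of marker lists shows. Red-cell precursor markers summed to between 313 and 517 CPM in WT sham and to 5648, 2276 and 1048 CPM in WT Ang II replicates 1, 2 and 3. In miR-214-/- Ang II they summed to 620, 4629 and 570 CPM, and granulocyte markers to 1205, 3040 and 620 CPM. Granulocyte markers were between 199 and 249 CPM in WT sham and between 1108 and 3344 CPM in WT Ang II, and edgeR called 10 of 10 of them higher, with 6 of 11 red-cell markers. Of the other lists, edgeR called higher 1 of 8 macrophage and 2 of 6 megakaryocyte markers and 0 of 6 B cell, 0 of 5 plasma cell and 0 of 3 tested NK cell markers. Log2 differences in WT were positive for 5 of 5 plasma cell (median 1.56), 0 of 6 B cell (-0.37) and 0 of 3 tested NK cell markers (-0.72). Of the plasma cell markers, 1 was higher at an edgeR adjusted p under 0.05. Of the T cell markers 0 of 14 were called, and 11 of 14 were lower at an adjusted p under 0.05. Of all genes tested in WT, edgeR called 7.01% higher, and 18.8% had an adjusted p under 0.05 in either direction. In these bulk samples fewer cells of a type and less RNA per cell cannot be told apart.

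**Figure D1:**
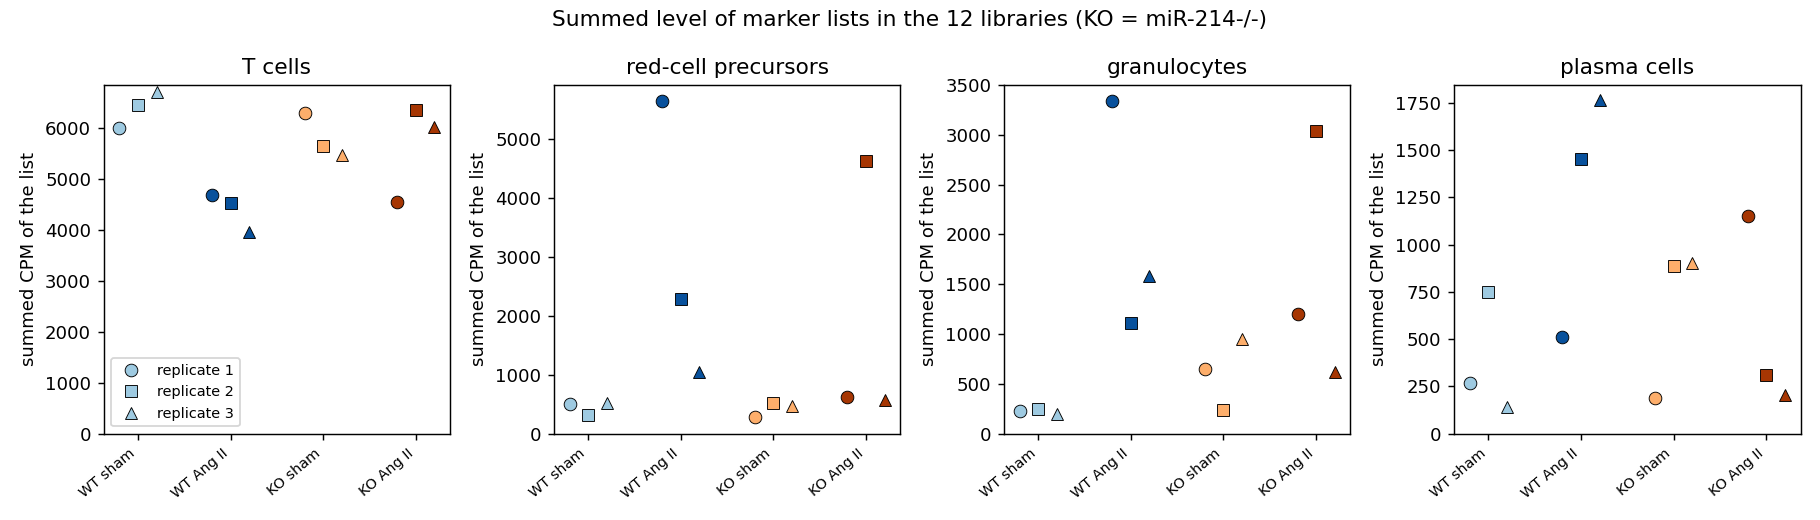
Summed CPM of 4 marker lists (y axis) in the 12 libraries, grouped by genotype and treatment (x axis; KO, miR-214-/-), with a symbol for each replicate. The T cell list is lowest in the WT Ang II libraries and in miR-214-/- Ang II replicate 1 (4551 CPM), and the plasma cell list is highest in WT Ang II replicates 2 and 3 and in miR-214-/- Ang II replicate 1 (1154 CPM).

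Per kilobase of exon, which allows levels of different genes to be compared, Cdkn1b had the highest mean in each of the 4 groups and Cdkn1a the lowest. Cdkn1b was at 93.6 ± 2.0 CPM per kb (SD, n = 3) in WT sham, and Ccnd2 was next at 74.3 ± 16.8, with overlapping ranges. Cdkn2d (31.3 ± 1.9) and Ccnd3 (28.0 ± 4.6) overlapped each other and were below both. E2f2 (7.79 ± 1.31) and Ccne1 (6.70 ± 0.49) formed the next pair, followed by E2f1, Ccne2 and E2f8 at 1.82, 1.80 and 1.77 CPM per kb, 3 levels that overlapped. Cdkn1a was at 0.741 ± 0.122. Among the 10 genes, the WT sham libraries thus held mostly Cdkn1b, Ccnd2, Cdkn2d and Ccnd3 transcripts on this scale. In WT Ang II the order changed in the lower part: Ccne1 (20.6 ± 8.2) and E2f2 (19.4 ± 3.0) overlapped, and E2f8 (10.9 ± 1.3) stood above E2f1 (7.39 ± 0.73), with Ccne2 (9.0 ± 2.27) between them and overlapping both. In miR-214-/- sham Ccne1 (10.4 ± 3.1) and E2f2 (7.44 ± 1.36) overlapped, and in miR-214-/- Ang II E2f2 (16.01 ± 2.56) and Ccne1 (12.6 ± 7.3) did so as well.

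**Figure D2:**
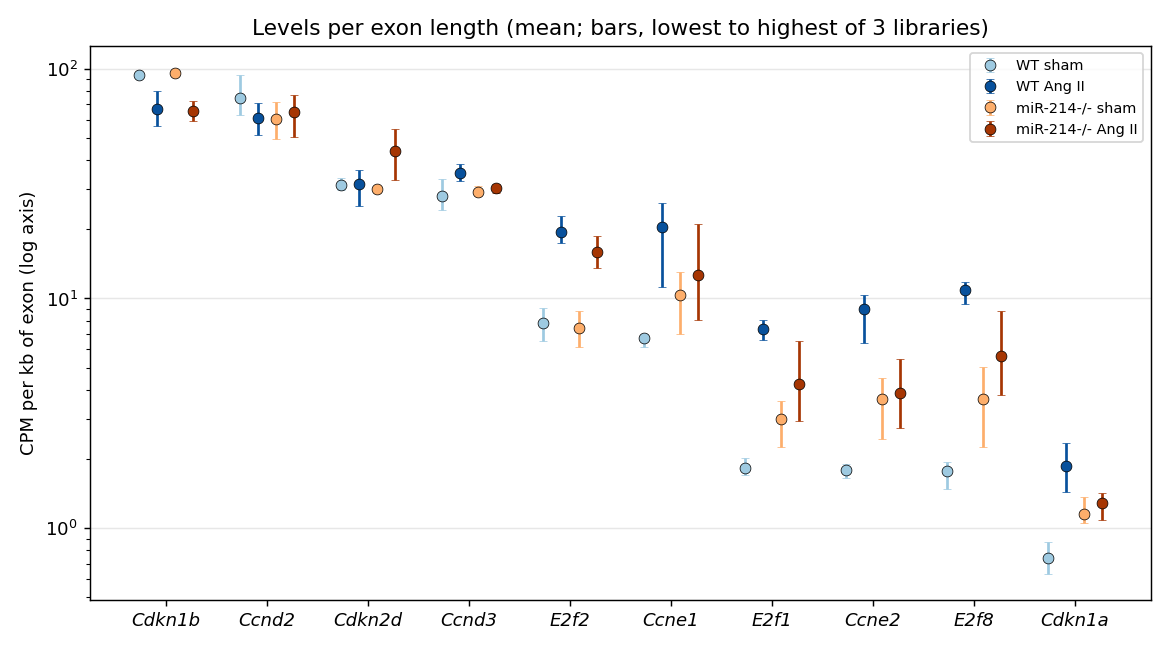
Level of the 10 genes in CPM per kb of exon (log y axis) in each of the 4 groups; points are means of 3 libraries and bars run from the lowest to the highest library. Cdkn1b and Ccnd2 are at the top and Cdkn1a at the bottom in each group, whereas the E-type cyclins and the E2F genes move between groups.

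The first comparison asked how these genes differed between Ang II and sham in the WT libraries. Marker sums of several cell types also differed between these groups, as given above. The part of cell composition in the differences was not tested. Both E-type cyclins, all 3 E2F genes and Cdkn1a rose, between 2.54-fold and 6.24-fold. The D-type cyclins, Cdkn2d and Cdkn1b were not called, and Cdkn1b was lower without reaching the fold threshold. Calls required a log2 fold change beyond 1 in either direction together with an adjusted p (edgeR, quasi-likelihood, Benjamini-Hochberg over 16012 genes) under 0.05. By this rule 6 of the 10 genes were called, all higher, compared with 7.3% of all genes called and 7.01% called higher. Because the 10 genes were chosen with earlier results of these data known, these shares are a description. At an adjusted p under 0.05 alone 7 of 10 passed, compared with 18.8% of all genes. The median log2 fold change of the 10 genes was 1.35, and that of all genes tested was -0.016. The 3 WT Ang II libraries did not overlap the 3 sham libraries for 7 genes, of which 6 were higher (19.1% of all genes) and 1 was lower (22.0% of all genes). An exact permutation test on a single gene has a smallest p of 0.1 at this group size, and the edgeR calls borrow information on the spread from other genes.

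**Figure D3:**
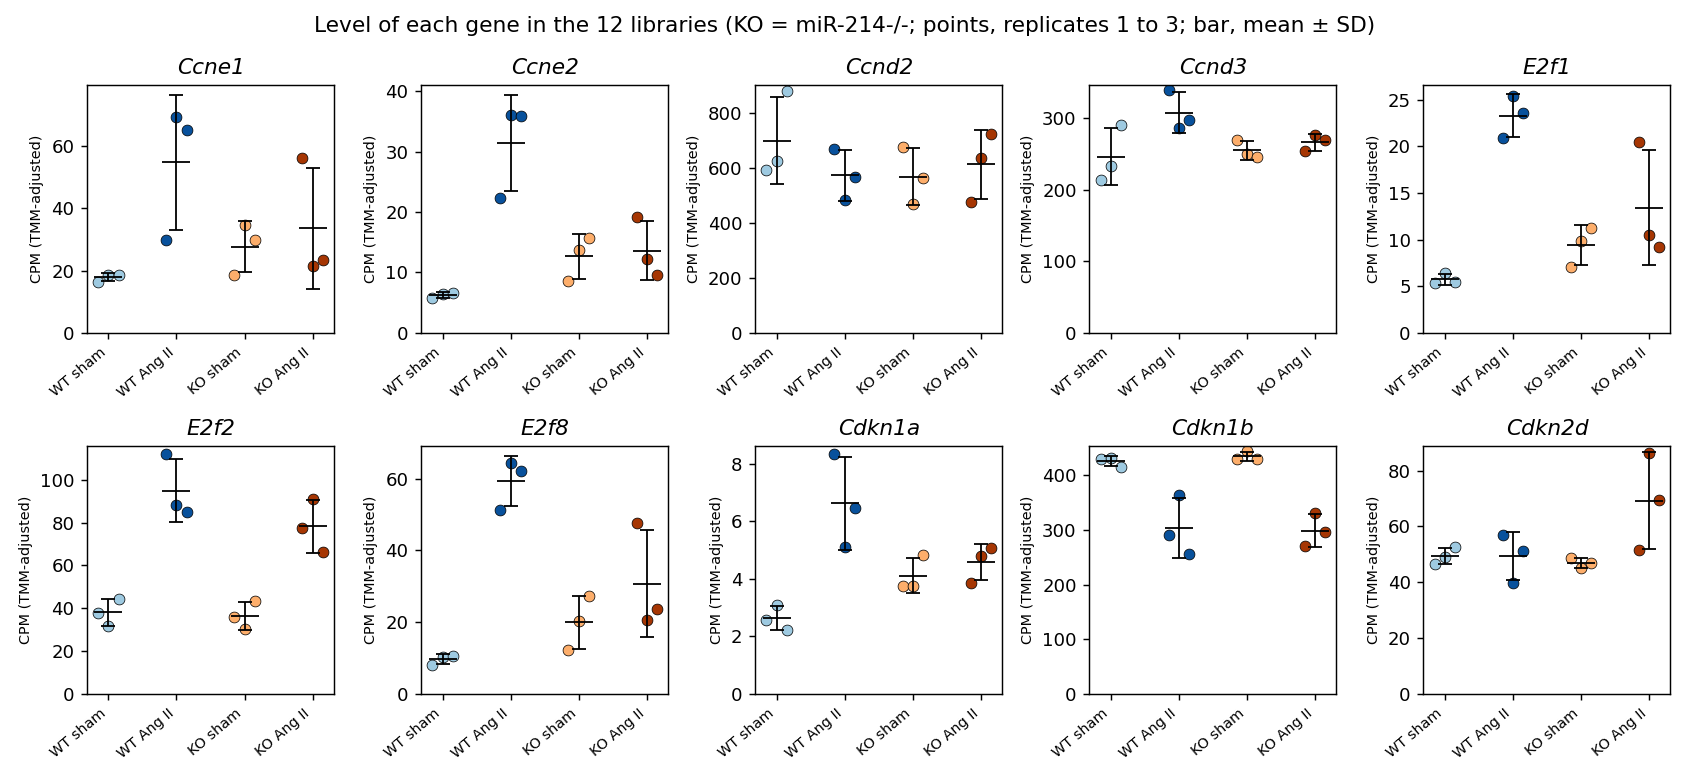
CPM of each gene (y axis, from 0) in the 12 libraries, by group (x axis; KO, miR-214-/-); points are replicates 1 to 3 and bars the mean ± SD. The 3 WT Ang II libraries lie above the 3 WT sham libraries for Ccne1, Ccne2, E2f1, E2f2, E2f8 and Cdkn1a and below them for Cdkn1b, and miR-214-/- Ang II replicate 1 stands above its group for Ccne1, E2f1 and E2f8.

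Ccne1, which encodes cyclin E1, was at 16.3, 18.7 and 18.5 CPM in WT sham and at 29.7, 69.3 and 65.2 CPM in WT Ang II. The groups did not overlap, but Ang II replicate 1 was less than 2-fold above the sham libraries, whereas the others were more than 3-fold above. Ccne1 rose 3.11-fold (log2 fold change 1.64, SE 0.30, edgeR adjusted p = 0.0141). The call was lost without WT sham replicate 1, WT sham replicate 3 or WT Ang II replicate 3, with edgeR adjusted p up to 0.0627.

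Ccne2, the gene of cyclin E2, was at 5.76, 6.43 and 6.65 CPM in WT sham and at 22.3, 36.1 and 35.9 CPM in WT Ang II. Each Ang II library was more than 3-fold above each sham library. Ccne2 rose 5.08-fold (log2 2.34, SE 0.21, edgeR adjusted p = 0.00159), and the call was kept whichever single library was left out. The ratio of Ccne2 to Ccne1 per kb was 0.268 ± 0.005 in WT sham and 0.463 ± 0.094 in WT Ang II. Ccne2 shares exon bases with Ints8, a gene of the opposite strand read at 1196 to 1927 counts per library, whose log2 difference in WT was 0.20 (edgeR adjusted p = 0.125). The strand setting of the counting is not given in the sources used here, so reads of such partners cannot be told apart with certainty.

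The D-type cyclins, which sense growth signals early in G1, did not pass the test. Ccnd2 (cyclin D2) was at 591, 625 and 880 CPM in WT sham and at 669, 483 and 567 CPM in WT Ang II, and the groups overlapped (log2 -0.26, SE 0.18, edgeR adjusted p = 0.344). Ccnd3 (cyclin D3) was at 214, 233 and 291 CPM in sham and at 339, 286 and 297 CPM in Ang II, with a log2 difference of 0.35 (SE 0.13, edgeR adjusted p = 0.0994). Neither D-type cyclin separated the treatments. Ccnd3 shares exon bases with Bysl on the opposite strand (542 to 1205 counts per library). On the scale per kb, the ratio of E-type to D-type cyclins was 0.0848 ± 0.0131 in WT sham and 0.321 ± 0.143 in WT Ang II, where replicate 1 had 0.16, replicate 2 had 0.433 and replicate 3 had 0.37.

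E2f8 changed most of the 10 genes. It was at 8.07, 10.4 and 10.5 CPM in WT sham and at 51.3, 64.4 and 62.3 CPM in WT Ang II, with a wide gap between the groups. It rose 6.24-fold (log2 2.64, SE 0.14, edgeR adjusted p = 0.000561). E2f1, an activator, was at 5.37, 6.39 and 5.46 CPM in sham and at 20.9, 25.4 and 23.6 CPM in Ang II, and rose 4.11-fold (log2 2.04, SE 0.14, edgeR adjusted p = 0.000949). E2f8 was at about the level of E2f1 in sham on the scale per kb, with a ratio of 0.975 ± 0.126, and above it in each WT Ang II library (1.42, 1.47 and 1.53).

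E2f2, the other activator, was at 37.9, 31.7 and 44.4 CPM in WT sham and at 112, 88.1 and 84.9 CPM in WT Ang II. The groups did not overlap, and replicate 1 was highest. E2f2 rose 2.54-fold (log2 1.34, SE 0.15, edgeR adjusted p = 0.00342). Replicate 1 was also the library with the highest red-cell sum, 5648 CPM, and the part of those cells in the value was not tested. Without it the log2 fold change of E2f2 was 1.21 (edgeR adjusted p = 0.00189), the lowest of the values found when single libraries were left out, which reached 1.46. E2f1, E2f2 and E2f8 were called in each of these 6 fits.

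Among the inhibitors, Cdkn1a, a target of p53 that stops the cycle after damage and also rises when T cells are stimulated, was at 2.57, 3.10 and 2.23 CPM in WT sham and at 8.33, 5.10 and 6.48 CPM in WT Ang II. It rose 2.56-fold (log2 1.35, SE 0.25, edgeR adjusted p = 0.0145) from the lowest level of the 10 genes. As for Ccne1, the call was lost without WT sham replicate 1 or 3 or WT Ang II replicate 3 (edgeR adjusted p up to 0.0597). In those fits 4 of the 10 genes were called, compared with 3.39%, 3.6% and 3.61% of all genes, down from 7.3% with all libraries. Cdkn1b was at 431, 432 and 415 CPM in sham and at 291, 365 and 257 CPM in Ang II. All Ang II libraries were below all sham libraries, and the difference was -0.47 on the log2 scale (SE 0.12, edgeR adjusted p = 0.0364), under the fold threshold; when single libraries were left out, that p was under 0.05 in 1 fit of 6. Cdkn2d was at 46.6, 48.9 and 52.5 CPM in sham and at 57.1, 39.9 and 51.2 CPM in Ang II, an overlap with a log2 difference of 0.03 (SE 0.14, edgeR adjusted p = 0.913).

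With Cdkn1a higher and Cdkn1b lower, the ratio of Cdkn1a to Cdkn1b per kb was 0.00791 ± 0.00117 in sham and 0.029 ± 0.00982 in Ang II, and p27 transcript stayed far above p21 transcript in both. The ratio of Cdkn1b to the E-type cyclins per kb was 12.2, 10.7 and 10.3 in WT sham and 3.64, 2.2 and 1.62 in WT Ang II.

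In the miR-214-/- libraries edgeR called 0 of the 10 genes for the same treatment, compared with 0.0% of all genes called (0 of 15937). An unadjusted p under 0.05 was reached by 3 of the 10 genes and by 1939 of all genes, and DESeq2 called 1 of the 10, E2f2, compared with 0.391% of all genes. The median log2 fold change was 0.22 for the 10 genes and 0.028 for all genes. The groups did not overlap for E2f2 and Cdkn2d, which were higher after Ang II (8.86% of all genes), and for Cdkn1b, which was lower (10.5% of all genes).

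**Figure D4:**
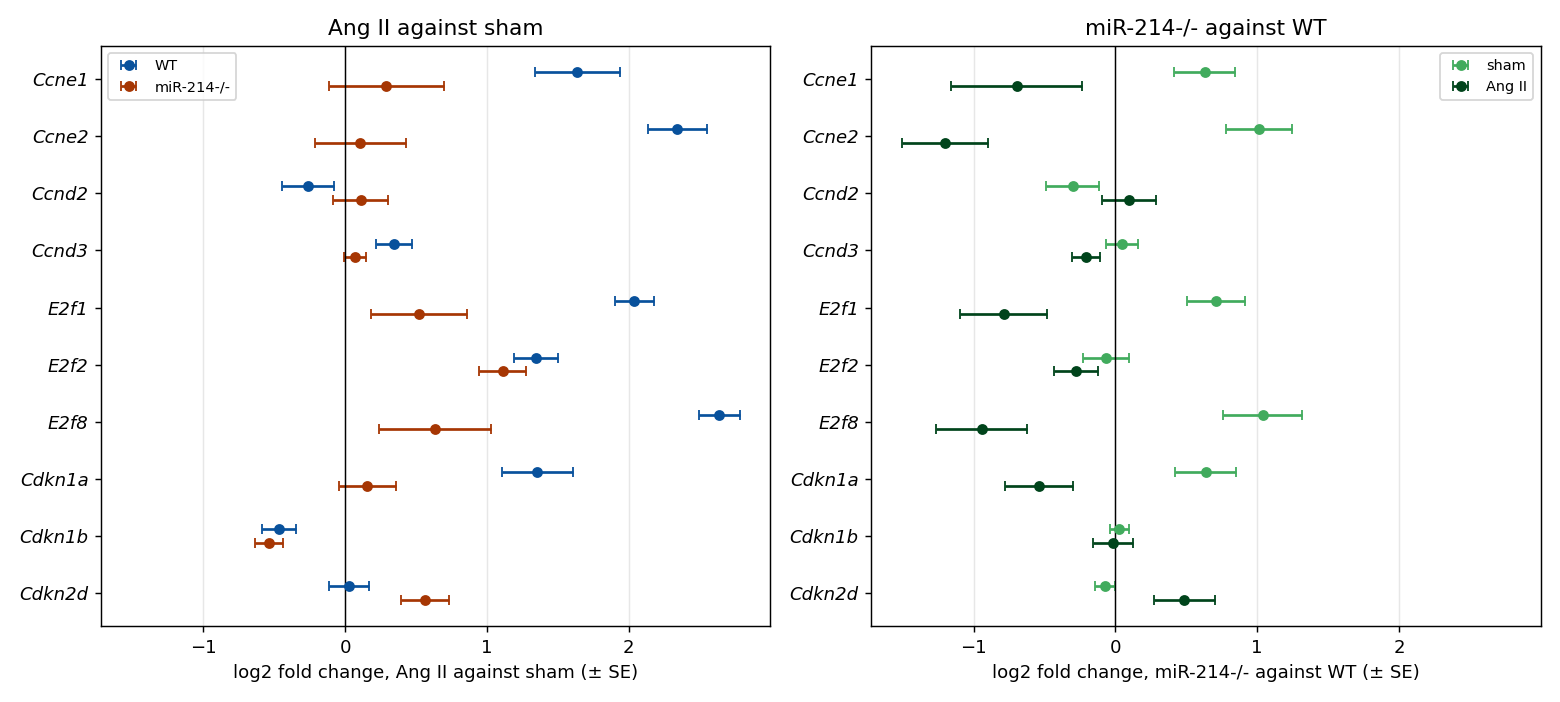
log2 fold change ± SE of the 10 genes (x axis, from edgeR): the effect of Ang II in each genotype (left) and the difference of miR-214-/- from WT under each infusion (right). In the left panel E2f2 and Cdkn1b lie close together in both genotypes, whereas Ccne1, Ccne2, E2f1, E2f8 and Cdkn1a lie further to the right in WT; in the right panel these 5 genes are above 0 in sham and below 0 in Ang II.

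E2f2 was at 35.7, 30.1 and 43.2 CPM in miR-214-/- sham and at 77.4, 91.0 and 66.1 CPM in miR-214-/- Ang II. The log2 difference was 1.11 (SE 0.17), with an adjusted p of 0.208 by edgeR and of 1e-06 by DESeq2. The highest value again came from the library with the highest red-cell sum of its group, replicate 2 with 4629 CPM. The other 2 libraries, with red-cell sums of 620 and 570 CPM, were also above each sham library in E2f2. Their red-cell sums were likewise above those of the miR-214-/- sham libraries, 284, 520 and 472 CPM. The part of red-cell precursors in E2f2 was not tested.

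Cdkn1b was at 431, 445 and 431 CPM in miR-214-/- sham and at 271, 331 and 296 CPM in miR-214-/- Ang II, so that the lower p27 transcript after Ang II was measured in both genotypes, with no overlap in either. The log2 difference was -0.54 (SE 0.10, edgeR adjusted p = 0.218; DESeq2 adjusted p = 0.000682). Cdkn2d was at 48.8, 45.2 and 46.9 CPM in sham and at 51.5, 86.4 and 69.6 CPM in Ang II, a log2 difference of 0.56 (SE 0.17, edgeR adjusted p = 0.314), and replicate 2 was again highest.

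The 4 genes that changed most in WT were split by library in miR-214-/-. Ccne1 was at 18.6, 34.6 and 29.9 CPM in sham and at 56.0, 21.5 and 23.3 CPM in Ang II. Ccne2 was at 8.56, 13.8 and 15.8 CPM in sham and at 19.1, 12.2 and 9.56 CPM in Ang II. In both genes Ang II replicate 1 was above all 3 sham libraries, and replicates 2 and 3 lay below sham replicates 2 and 3.

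E2f1 was at 7.10, 9.90 and 11.2 CPM in miR-214-/- sham and at 20.5, 10.5 and 9.26 CPM in Ang II. E2f8 was at 12.3, 20.2 and 27.2 CPM in sham and at 47.8, 20.7 and 23.7 CPM in Ang II. Replicate 1 of Ang II again stood alone, near the WT Ang II values, and replicate 1 of sham was the lowest of its group. The log2 differences were 0.29 (SE 0.41) for Ccne1, 0.11 (SE 0.32) for Ccne2, 0.52 (SE 0.34) for E2f1 and 0.64 (SE 0.40) for E2f8, with edgeR adjusted p of at least 0.542. Without Ang II replicate 1 the differences were -0.30 for Ccne1, -0.23 for Ccne2, 0.069 for E2f1 and 0.15 for E2f8, and none was past the edgeR threshold.

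Plasma cell markers (5 genes, such as Jchain and Xbp1) also differed between these libraries. Their sum was 187, 889 and 900 CPM in miR-214-/- sham and 1154, 311 and 202 CPM in miR-214-/- Ang II, highest in Ang II replicate 1, where Ccne1, Ccne2, E2f1 and E2f8 were highest. The low sums of Ang II replicates 2 and 3 went with lower Ccne1 and Ccne2 than in sham replicates 2 and 3, but not with lower E2f8 than in sham replicate 2, nor in replicate 2 with lower E2f1. In WT the sum was 269, 750 and 138 CPM in sham and 509, 1450 and 1764 CPM in Ang II, and Ang II replicate 1, with the lowest sum of its group, had the lowest Ccne1, Ccne2, E2f1 and E2f8 as well. WT sham replicate 2, with 750 CPM, the highest sum of its group, had 18.7 CPM of Ccne1 and 10.4 CPM of E2f8, close to the other WT sham libraries. The T cell sum of miR-214-/- Ang II replicate 1 was 4551 CPM, compared with 6338 and 6019 CPM in replicates 2 and 3. The part of plasma cells or of cell composition in these levels was not tested.

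The remaining genes moved little in miR-214-/-. Cdkn1a was at 3.74, 3.76 and 4.83 CPM in sham and at 3.87, 4.78 and 5.06 CPM in Ang II. Ccnd2 was at 674, 467 and 564 CPM in sham and at 476, 637 and 724 CPM in Ang II, and Ccnd3 at 269.7, 249 and 245 CPM in sham and at 253, 276 and 269.7 CPM in Ang II. Ranges overlapped in each, and the log2 differences were 0.16, 0.11 and 0.07.

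Genotypes were then compared under the same infusion. In sham mice 0 of the 10 genes were called by edgeR, compared with 0.0189% of all genes (3 of 15913), although 5 of the 10 and 1061 of all genes had an unadjusted p under 0.05. Ccne2, E2f1, E2f8 and Cdkn1a were higher in all 3 miR-214-/- libraries than in all 3 WT libraries, compared with 5.39% of all genes. The log2 differences were 1.01 (SE 0.23) for Ccne2, 1.04 (SE 0.28) for E2f8, 0.71 (SE 0.20) for E2f1 and 0.64 (SE 0.22) for Cdkn1a, each with an edgeR adjusted p of 0.701. DESeq2 called Ccne2 and E2f8 (adjusted p = 0.00578 and 0.00993), compared with 0.289% of all genes. Without miR-214-/- sham replicate 1, edgeR called Ccne2 as well (log2 1.23, adjusted p = 0.0486), compared with 0.184% of all genes. Granulocyte markers summed to 653, 234 and 953 CPM in miR-214-/- sham, compared with 199 to 249 CPM in WT sham, and 10 of 10 had a positive log2 difference with a median of 1.45 and 0 called by edgeR. Log2 differences were also positive for 5 of 5 plasma cell (median 0.67), 6 of 11 red-cell (1.44) and 6 of 8 macrophage markers (0.11). They were positive for 1 of 14 T cell (-0.14), 0 of 6 B cell (-1.34) and 0 of 3 tested NK cell markers (-0.27). Of all these markers edgeR called 0. The part of these cells in the differences between genotypes was not tested. Cdkn1b differed by 0.03 and E2f2 by -0.07 on the log2 scale, with SE of 0.07 and 0.16.

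In Ang II-infused mice the same genes pointed the other way. By edgeR 0 of the 10 genes were called, compared with 0.0% of all genes (0 of 16215), and 3 of the 10 and 1388 of all genes had an unadjusted p under 0.05. Ccne2, E2f1, E2f8, Cdkn1a and Ccnd3 were lower in all miR-214-/- libraries than in all WT libraries, compared with 5.94% of all genes. The log2 differences were -1.20 (SE 0.30) for Ccne2, -0.94 (SE 0.32) for E2f8, -0.79 (SE 0.31) for E2f1, -0.54 (SE 0.24) for Cdkn1a and -0.20 (SE 0.10) for Ccnd3, with edgeR adjusted p of at least 0.569. DESeq2 called Ccne2 (adjusted p = 0.0302), compared with 0.143% of all genes. For E2f2 and Cdkn1b the log2 differences were -0.28 (SE 0.16) and -0.02 (SE 0.14), with overlapping libraries. Of the marker lists edgeR called 0 genes. Log2 differences were positive for 14 of 14 T cell (median 0.39), 6 of 6 B cell (0.50) and 3 of 3 tested NK cell markers (0.18). They were positive for 0 of 11 red-cell (-1.24), 0 of 10 granulocyte (-0.36), 0 of 5 plasma cell (-0.86) and 0 of 8 macrophage markers (-0.66). The part of cell composition in the differences between genotypes was not tested.

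Whether the response to Ang II differed between genotypes was tested by an interaction term fitted to the 12 libraries together, where the threshold was an adjusted p of 0.05 with no limit on the fold. By edgeR 0 of the 10 genes passed, compared with 0.00596% of all genes (1 of 16770), and 6 of the 10 genes and 2483 of all genes had an unadjusted p under 0.05. The interaction was -2.22 on the log2 scale for Ccne2 (SE 0.41), -1.99 for E2f8 (SE 0.46), -1.51 for E2f1 (SE 0.39) and -1.18 for Cdkn1a (SE 0.31), a smaller response in miR-214-/- for each, with an edgeR adjusted p of 0.213. It was -1.34 for Ccne1 (SE 0.56, edgeR adjusted p = 0.308) and 0.56 for Cdkn2d (SE 0.24, edgeR adjusted p = 0.315).

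This result depended on the tool and on 1 library. DESeq2 passed Ccne2, E2f8, E2f1 and Cdkn1a (adjusted p = 5.21e-05, 0.00192, 0.00845 and 0.0253), compared with 3.22% of all genes. Without miR-214-/- Ang II replicate 1, edgeR passed Ccne1, Ccne2, E2f1 and E2f8, compared with 5.35% of all genes. In that fit the interactions were -1.92, -2.55, -1.95 and -2.46 on the log2 scale, with edgeR adjusted p between 0.0122 and 0.04. The library was the one with the highest plasma cell sum and the lowest T cell sum of its group, and no label sets it apart. For E2f2 and Cdkn1b the interaction was -0.22 (SE 0.24) and -0.06 (SE 0.17), which does not show that the genotypes responded alike, and for Ccnd2 and Ccnd3 it was 0.39 (SE 0.29) and -0.26 (SE 0.16). With all 12 libraries it was positive for 14 of 14 T cell (median 0.53), 6 of 6 B cell (1.86) and 3 of 3 tested NK cell markers (0.52). It was positive for 3 of 11 red-cell (-2.73), 0 of 10 granulocyte (-1.71), 0 of 5 plasma cell (-1.54) and 0 of 8 macrophage markers (-0.72). Of these markers edgeR passed 0. The part of cell composition in the interaction was not tested.

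**Figure D5:**
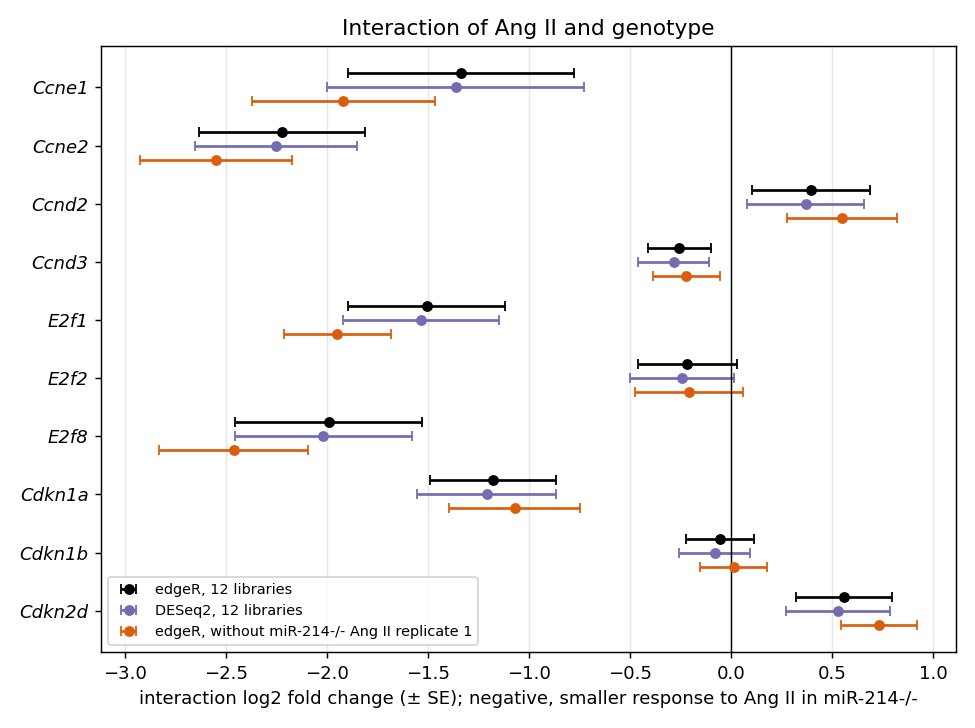
Interaction of Ang II and genotype for the 10 genes (x axis, log2 scale, ± SE; a negative value is a smaller response in miR-214-/-) by edgeR on 12 libraries, by DESeq2 on 12 libraries and by edgeR without miR-214-/- Ang II replicate 1. Ccne1, Ccne2, E2f1, E2f8 and Cdkn1a are below -1 in all 3 fits, and E2f2 and Cdkn1b are near 0.

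Over the 12 libraries Ccne1, Ccne2, E2f1 and E2f8 varied together, which describes groups and libraries at once. On log2 CPM the Pearson correlation was 0.989 between E2f1 and E2f8, 0.971 between Ccne2 and E2f1 and 0.927 between Ccne1 and Ccne2. E2f2 was less close to E2f1 (0.779) and ran opposite to Cdkn1b (-0.848), and Ccnd2 ran opposite to Ccne1 (-0.681) and E2f1 (-0.544), whereas Cdkn2d was near 0 with E2f1 (-0.086). The points share the differences in marker sums between libraries given above.

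Of the genes outside the 10 with a mean log2 CPM above 1, the 3 with the closest pattern to each gene were found by the same measure, out of 12280 genes. For E2f1 they were Kif2c, Nusap1 and Hmgb2 (0.994, 0.993 and 0.993), and for E2f8 Top2a, Kif11 and Ncapg (0.996, 0.996 and 0.994), most of them known from mitosis. For Ccne1 they were Ssx2ip, Chtf18 and Vkorc1l1 (up to 0.991), and for Ccne2 Dynlt1a, Micall2 and Oip5 (up to 0.986). E2f2 was nearest to Csrp1, Fam111a and Cptp (up to 0.966), Cdkn1a to Ckap4, Pcyox1 and Tirap (up to 0.948), and Cdkn1b to Zfp949, Slc26a11 and Vgll4 (up to 0.981). Ccnd2 was nearest to Tln1, Acly and Sh3bp1 (up to 0.959), Ccnd3 to Arl8b, Lman2 and Ywhag (up to 0.899), and Cdkn2d to Pdcl, Agpat2 and Trim36 (up to 0.907).

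Other genes of the pathway were described in WT from lists by role, chosen with earlier results of these data known. Of all genes tested in WT, edgeR called 7.01% higher, and 18.8% had an adjusted p under 0.05 in either direction. Of 10 tested cyclin and Cdk partners, 3 were called higher and 0 lower: Ccna2, the cyclin of S phase (log2 2.59), Cks1b, a subunit of Cdk complexes (1.85), and Cdk6, the partner of D-type cyclins (1.03). The median over the list was 0.69. Of 7 other E2F and DP genes 4 were called higher, namely the repressor E2f7 (2.01), the dimer partners Tfdp2 (1.40) and Tfdp1 (1.04), and the activator E2f3 (1.17). Among 9 pocket protein and DREAM genes Mybl2 alone was called (2.29).

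Of 4 other tested Cdk inhibitors 2 were called higher, Cdkn2c (p18-Ink4c, log2 1.65), a relative of Cdkn2d, and Cdkn3 (2.01), a phosphatase of Cdk2. Of 10 genes of ubiquitin ligases for G1/S proteins and of ligase regulators, 3 were called higher. They were Dtl (2.46), the regulator Fbxo5 (1.17) and Skp2 (1.16), of which Skp2 targets p27 protein for breakdown. E2F target genes of S phase were called higher in 19 of 22, with 22 of 22 at an adjusted p under 0.05 and a median of 1.82, and the 4 largest were Cdc6 (2.88), Rrm2 (2.57), Mcm10 (2.34) and Orc1 (2.30). All these calls were made by edgeR, to be read beside the 7.01% of all genes called higher and the 18.8% with an adjusted p under 0.05.

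The last 2 lists bore on the inhibitors. Of 12 tested p53 targets other than Cdkn1a, edgeR called 1 higher, Phlda3 (log2 1.98), and the list's median was -0.14. Of 10 lymphocyte quiescence factors 0 were called by edgeR, and 7 were lower at an adjusted p under 0.05 without reaching the fold threshold, with a median of -0.43. The T cell markers had a median of -0.52 in the same comparison, with 11 of 14 lower at an edgeR adjusted p under 0.05. The part of cell composition in the quiescence list was not tested. In miR-214-/- and in the comparisons of genotypes, edgeR called 0 genes of these 8 lists, and the median of the E2F targets was 0.35 for Ang II in miR-214-/-, 0.54 for genotype in sham, -0.76 for genotype in Ang II and -1.35 for the interaction.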

How the data were processed

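The authors trimmed paired-end reads of poly(A) libraries, mapped them to GRCm38 with STAR and counted them per gene with featureCounts (Subread 1.5.2 in the submitters' processing notes), and deposited raw counts. The annotation release and strand setting are not given in the sources used here. All 12 columns were used, and 0 were left out. Of 49315 identifiers, 48970 matched GENCODE M21, which gave symbols, exon lengths and 3′ UTRs; 0 of 12 replicate pairs were identical. Nothing in the labels pairs the mice.

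The tests used edgeR 4.0.16 in R 4.3.3 (filterByExpr on the groups compared, TMM scaling, quasi-likelihood test, Benjamini-Hochberg adjustment over all tested genes) and checked on simulated data. CPM used TMM-adjusted totals, and correlations used log2 CPM with a prior count of 2. Fits held only the groups compared, except the interaction. Alternatives were DESeq2 1.42.0 (Wald test), other scalings and filters, a replicate block, 1 fit over all groups, the adjusted-deviance fit, another call rule, and leaving out each library. The members and lists were chosen with earlier results of these data known. Named genes were the 10 members, up to 4 called genes per list with the largest change in WT, and the 3 nearest genes by pattern. For the miR-214 site and the E2F motif, letters alone were matched. Python 3.11.15 was used for summaries and plots.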

Additional observations from a re-analysis of the deposited data

How the results depend on the processing

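Of the 10 genes, 6 were called in WT under the settings tried with all 6 libraries, except 7 by the adjusted p alone, and 4 to 6 when each library was left out in turn. DESeq2 called 1 in miR-214-/-, 2 between sham groups, 1 between Ang II groups and 4 for the interaction, in place of 0 by edgeR; other scalings and filters, the joint fit and the adjusted-deviance fit moved none of these counts. Leaving out 1 library gave 0 to 1 between sham groups (1 without miR-214-/- sham replicate 1), 0 to 4 for the interaction (4 without miR-214-/- Ang II replicate 1), and 0 in the others. The cause was not tested.

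No log2 fold change changed sign in a fit that kept all libraries. Without 1 library, signs turned for Cdkn2d in WT (-0.10 to 0.15), for Ccne1 (-0.30 to 0.52), Ccne2 (-0.23 to 0.30) and Ccnd2 (-0.029 to 0.26) in miR-214-/-, for E2f2 (-0.21 to 0.057) and Ccnd3 (-0.039 to 0.18) between sham groups, for Ccnd2 (-0.037 to 0.24) and Cdkn1b (-0.12 to 0.12) between Ang II groups, and for Cdkn1b in the interaction (-0.16 to 0.10).

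Over all genes the WT count was 1169, between 564 (without WT sham replicate 1) and 1338 when single libraries were left out, 1380 by DESeq2 and 1393 with no filter. With the replicate block 6 of the 10 genes were called in WT and 0 in the other comparisons. Same-numbered libraries did not all deviate together. The correlation of their deviations was 0.25, 0.13 and -0.23 for numbers 1 to 3 in WT and -0.68, -0.32 and -0.52 in miR-214-/-. Between genotypes it was 0.016, 0.34 and -0.45 in sham and -0.55, -0.23 and -0.24 in Ang II. Depth limits Cdkn1a most.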
